A study of Mus musculus with 23 samples.

Results

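The comparison set adipocytes against preadipocytes of C3H10T1/2, a mesenchymal stem cell line of the C3H mouse strain, in 2 RNA libraries made by TELP, a library construction method for sequencing. The pair was chosen by its labels: the library titled day 7 with N9 against the one titled day 0 with N9, out of 6 RNA libraries and 23 samples in the series. The labels do not spell out N9. The series asked how TELP libraries compare with standard ones in precursor and mature fat cells, and the RNA pair made by a standard procedure is used here only beside the TELP values.

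Both libraries came from total RNA of cells that had been seeded with 8.3 nM human recombinant BMP7 for 3 days in medium with 10% serum. The day 0 cells are the preadipocytes, before induction. The day 7 cells had then received 5 µM dexamethasone and 0.5 mM IBMX until day 2, and 0.12 µg/ml insulin, 1 µM of a compound labelled Rosi and 1 nM T3 until day 7. The line is 1 cell line in culture, the inducers act on transcription themselves, and at day 7 the added agents cannot be told apart from the differentiated state. With 1 library a side no difference below has a replicate check or a p-value, and the labels do not say whether the RNA came from separate cultures.

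Fat cell differentiation runs through a short cascade of transcription factors. Early factors such as C/EBPβ and C/EBPδ switch on PPARγ and C/EBPα, which then keep each other on and bind beside most genes of the mature fat cell. The mature cell takes up and makes fatty acids, stores them as triglyceride in lipid droplets, releases them on adrenergic signals and secretes hormones, while the precursor is a contractile fibroblast that builds collagen matrix.

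Values are RPKM, read numbers corrected for gene model length and library size, so levels of genes can be set side by side only roughly. Small noncoding RNAs recognised by their symbols (1198 of 24029 genes) were left out. The 2 libraries were scaled to each other by the median ratio of 9741 genes, and all levels printed are these scaled RPKM. A difference is day 7 minus day 0 on the log2(scaled RPKM + 1) scale, which understates the change of low genes. Of 22831 genes 11145 had a mean of at least 1 and were kept. Calls, higher or lower, were made at a difference of at least 1, a 2-fold step. Steps in the low values put the depth near 22500000 reads at day 0 and 5480000 at day 7, so that 1 RPKM as deposited over 2 kb rests on about 45.1 and 11.0 reads. These depths rest on 49 of 500 and 24 of 131 short genes and are approximate, but the ratio between the libraries, read separately from 102 of 2015 low genes, was 4.11.

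Of the kept genes 2114 (19.0%) were higher at day 7 and 2183 (19.6%) were lower. These shares are the background for the counts of every gene list below. The middle of the distribution lay at -0.06, with quartiles at -0.78 and 0.70. The large differences were mostly on the higher side: 224 genes were higher by at least 4 log2 units and 56 lower, and at 8 units the counts were 17 and 3. These 3 were AF357426, Gm15772 and Rps27rt, all among the copies and small RNAs set aside when genes are named. In the standard libraries they stood at 288.6 and 338.8, 380.0 and 230.7, and 207.5 and 121.7. The balance depends on the scaling. With the RPKM as deposited 31.8% of calls were higher, and with both libraries set to equal totals 26.6%, against 49.2% here, because the median of all genes moves to -0.44 and -0.58. Genes listed at 0 numbered 6173 at day 0 and 8926 at day 7, and the part of the shallower day 7 library in this was not tested. Of the kept genes 74 were at 0 at day 0 and 54 at day 7, and the filter on the mean fixes their calls.

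**Figure D1:**
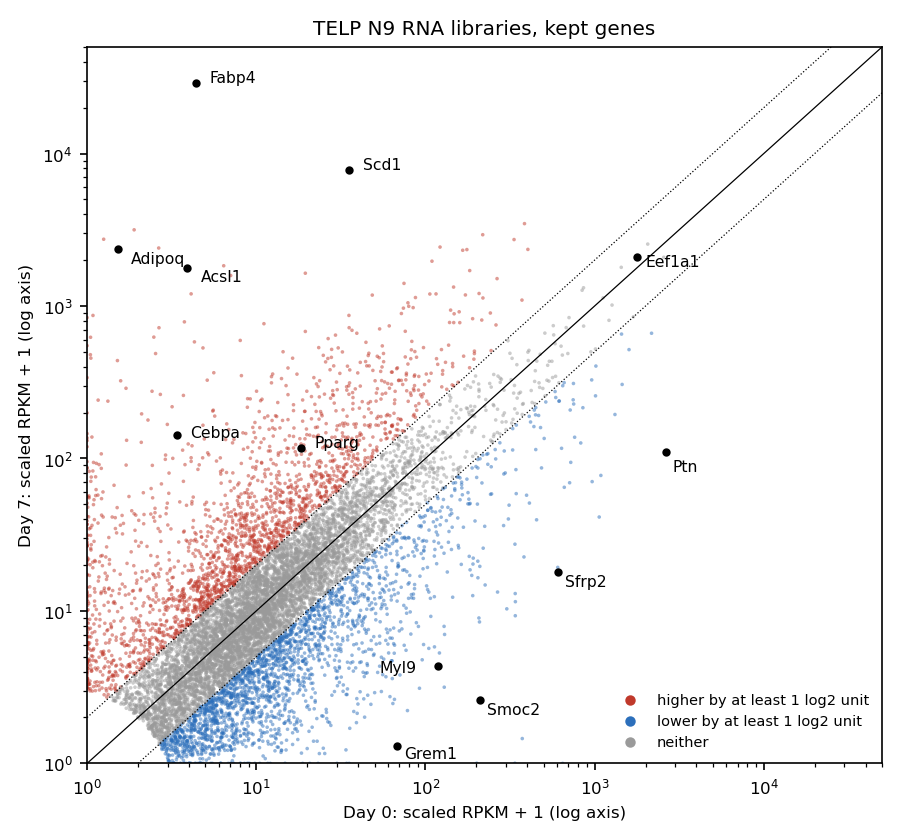
Scaled RPKM + 1 at day 0 (x axis) and day 7 (y axis) of the 11145 kept genes, 1 point a gene, both axes on a log scale; the solid line marks equal levels and the dotted lines a difference of 1 log2 unit, and red and blue points are genes called higher and lower. Fabp4 and Scd1 sit alone at the top, while Ptn, Sfrp2, Smoc2 and Grem1 sit at the lower right.

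Marker genes matched the labels. All 8 kept adipocyte markers of the 9 sought were higher at day 7, and their summed level went from 24.0 to 36064.7 scaled RPKM. Leptin (Lep), a hormone of mature white fat, was listed at 0 in both libraries. Of 8 preadipocyte markers 7 were lower and their sum went from 314.2 to 63.7. Pdgfra, a growth factor receptor of fat cell precursors, went from 57.3 to 5.41, the surface protein Cd34 from 8.58 to 0.545, and Dlk1, an inhibitor of adipogenesis, from 6.68 to 0.459, a difference of -2.40. Zfp423, a factor of fat cell commitment, was the exception, at 3.68 and 7.41. In such bulk RNA fewer cells of a type and less RNA per cell cannot be told apart.

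Markers of other mesenchymal fates were low or lower. Sox9, the master factor of cartilage, went from 62.6 to 5.62, and the cartilage collagen Col2a1 from 3.58 to 0.600. Comp and Acan, at 0.171 and 0.0106 at day 0, were listed at 0 at day 7. Runx2, the bone factor, went from 14.2 to 2.46. The bone genes Sp7, Bglap, Ibsp and Dmp1 were at 0.252 or less at day 0 and listed at 0 at day 7. Alpl stood at 0.720 and 0.455, under the filter like them. Summed chondrocyte markers went from 66.4 to 6.22 and osteoblast markers from 15.4 to 2.91, sums that rest mostly on Sox9 and Runx2. None of the 6 skeletal muscle markers was kept, with sums of 0.449 and 1.48. Of 5 endothelial markers Tek alone was kept, at 8.13 and then listed at 0 like the other 4. Among 6 leukocyte and macrophage markers Cd68 went from 0.364 to 5.47 and Cd14 from 2.47 to 1.74. Ptprc, Csf1r, Lyz2 and Emr1 were at 0.0889 or less at day 0 and listed at 0 at day 7. The 4 epithelial markers summed to 0.241 and 0.

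**Figure D2:**
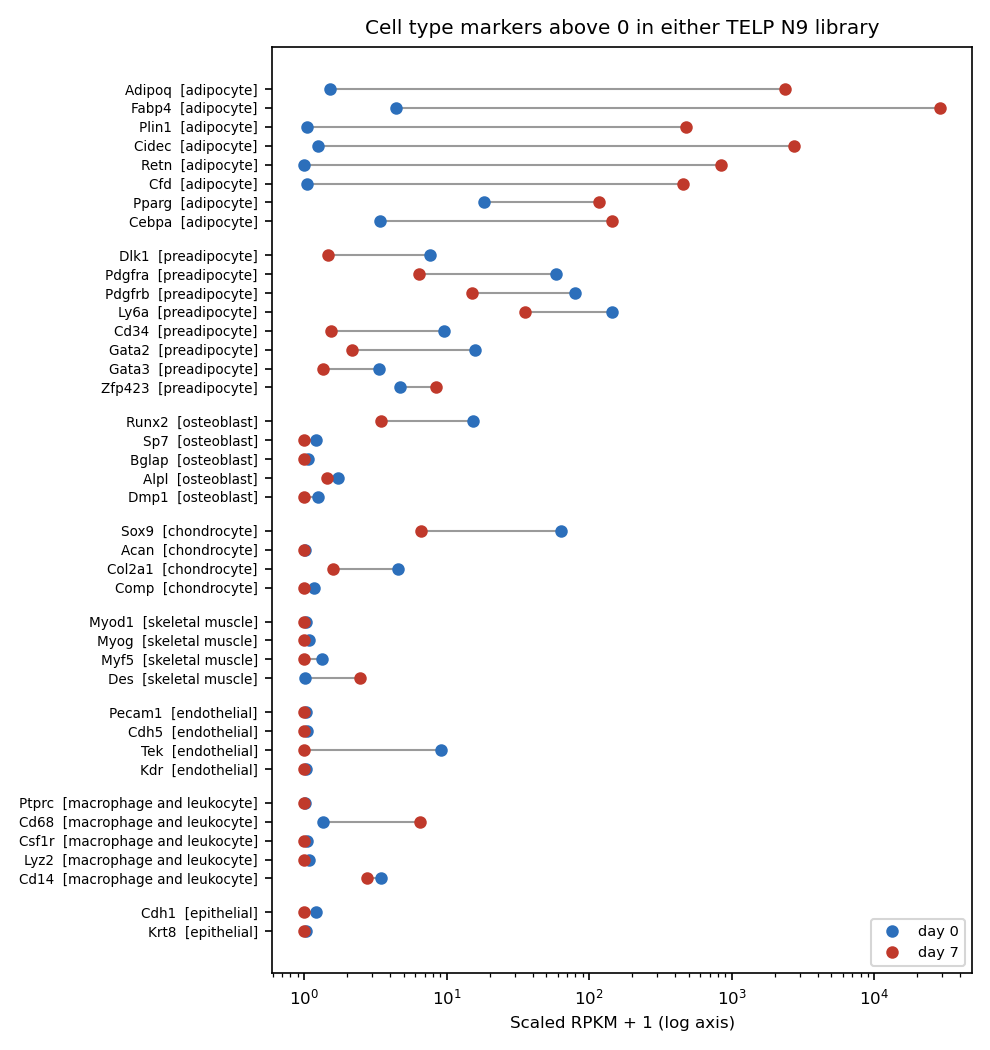
Scaled RPKM + 1 (x axis, log scale) of each cell type marker above 0 in either library, blue for day 0 and red for day 7. The 8 adipocyte markers move to the right, 7 of the 8 preadipocyte markers to the left, and markers of muscle, endothelium, leukocytes and epithelium lie near the left edge at day 7 except Cd68, Cd14 and Des.

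The transcription factors of the cascade were called both ways. Pparg, the nuclear receptor at its centre, went from 17.4 to 115.3 (2.66), so it was already expressed before induction. Cebpa, its partner, went from 2.40 to 142.2 (5.40). Nr1h3, the oxysterol receptor LXRα, went from 0.217 to 53.5 (5.48), and Ppargc1b, a coactivator of mitochondrial genes, from 0.290 to 21.6 (4.13). The lower members with the largest differences were Cebpd, Klf4 and Gata2. Cebpd, an early inducer, went from 26.7 to 6.36 (-1.91), Klf4 from 61.8 to 10.8 (-2.41), and Gata2, which represses Pparg, from 14.7 to 1.18 (-2.84). Of 25 kept factors 12 were higher and 5 lower, with a median difference of 0.90. The 5 lower were near the 19.6% share of all kept genes.

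Genes that coat the lipid droplet and handle fatty acids held the top of the whole list. Fabp4, the fatty acid carrier of the fat cell, went from 3.38 to 28948.2 scaled RPKM (12.69) and alone took 6.62% of the library's RPKM at day 7. Cidec, which lets droplets fuse, went from 0.253 to 2740.9 (11.10), and Plin1, the perilipin that guards the droplet, from 0.0458 to 478.4 (8.84). Lpl, the lipase that frees fatty acids from lipoproteins, went from 1.65 to 2400.2 (9.83), the fatty acid transporter Cd36 from 0.0832 to 866.3 (9.65), and Acsl1, which activates fatty acids with coenzyme A, from 2.91 to 1785.8 (8.84). All of these stood under 4 scaled RPKM at day 0. Of 11 kept droplet proteins 9 were higher and 0 lower (median 4.13), and of 15 uptake and activation genes 13 and 0 (median 3.80). The uptake list took 0.0959% of RPKM at day 0 and 8.57% at day 7.

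Triglyceride assembly and breakdown genes were higher together. Gpd1, which makes the glycerol 3-phosphate backbone, went from 0.897 to 3159.7 (10.70), and Agpat2, an acyltransferase of the same path, from 6.06 to 1584.3 (7.81). Pck1, the glyceroneogenic enzyme, was listed at 0 at day 0 and at 118.4 at day 7. In this list 12 of 15 kept genes were higher and 0 lower (median 4.30). On the side of lipolysis, the first triglyceride lipase Pnpla2 went from 3.12 to 1200.4 (8.19), its inhibitor G0s2 from 1.66 to 719.4 (8.08), and the hormone-sensitive lipase Lipe from 3.31 to 580.8 (7.08). Pde4b, a phosphodiesterase that breaks down cAMP, was the member called lower, at 6.09 and 1.80 (-1.34). Counts were 11 higher and 1 lower of 16 (median 3.50).

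Lipogenesis was led by Scd1, the stearoyl-CoA desaturase, which went from 34.4 to 7758.8 (7.77) and stood next after Fabp4 in RPKM at day 7. Thrsp, a regulator of lipogenesis, went from 0.0909 to 93.2 (6.43), and Slc25a1, which exports citrate from mitochondria as the source of acetyl-CoA, from 34.3 to 866.7 (4.62). The elongases split. Elovl3, an elongase of brown fat, went from 0.0906 to 48.8 (5.51), and Elovl6, which lengthens palmitate, from 22.1 to 4.01 (-2.20). With a further day 7 TELP library, labelled T18, in place of N9 they stood at 0.31 and -0.08. Of 19 genes 15 were higher and 1 lower (median 3.19).

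Secreted fat cell products followed. Adipoq, which encodes adiponectin, went from 0.516 to 2347.3 (10.60), and the complement factor adipsin (Cfd) from 0.0525 to 454.1 (8.76). Retn, which encodes resistin, was listed at 0 at day 0 and at 838.3 at day 7, and Adig, a small adipocyte protein outside this list, at 0 and 338.0. Of 17 kept adipokines 15 were higher (median 3.95). The lower ones were Pltp, a phospholipid carrier, at 67.8 and 18.4 (-1.82), and Apoe, the apolipoprotein E, at 50.3 and 23.6 (-1.06, and -0.92 with a further day 7 library labelled N9_ss or 1.16 with T18).

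Insulin action genes were mixed. Slc2a4, the insulin-responsive glucose transporter GLUT4, went from 0.0580 to 74.5 (6.16). The hexokinase Hk2 went from 1.93 to 42.4 (3.89). Grb10, an adaptor that restrains the insulin receptor, went from 164.3 to 56.8 (-1.52), Akt1 from 91.4 to 41.0 (-1.14, and -0.98 with N9_ss), and Irs1 from 45.5 to 20.6 (-1.10). Of 18 genes 8 were higher and 4 lower (median 0.88), the latter near the 19.6% share of all kept genes. In the standard pair 6 were higher and 1 lower of 18 (median 0.58).

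Nearly every gene of the respiratory chain was higher. Of 41 complex I genes 38 were higher and 0 lower (median 2.06), and of 39 genes of complexes III to V with cytochrome c 35 and 0 (median 2.45), against 19.0% of all kept genes. Atp5b, the catalytic ATP synthase subunit, went from 333.1 to 2727.4 (3.03), the Rieske protein Uqcrfs1 from 25.6 to 610.2 (4.52), Cyc1 of complex III from 31.3 to 498.8 (3.95), and cytochrome c (Cycs) from 9.41 to 202.2 (4.29). Ndufs5, an accessory subunit, went from 9.81 to 243.7 (4.50), more than Ndufv1, a core subunit, at 22.2 and 295.2 (3.67). Their order was reversed in the standard pair, at 1.43 for Ndufs5 and 2.07 for Ndufv1. Complexes III to V took 1.75% of RPKM at day 0 and 7.19% at day 7.

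Cytochrome oxidase carries some subunits in 2 forms, a general one and one of particular tissues. All 7 kept members of 8 were higher. Among general forms Cox6a1 went from 384.1 to 3469.5 (3.17), Cox8a from 217.1 to 2934.3 (3.75), Cox4i1 from 264.1 to 1511.5 (2.51), and Cox7a2 from 54.1 to 323.3 (2.56). Among the tissue forms Cox8b was listed at 0 at day 0 and stood at 548.4 at day 7, Cox7a1 at 0 and 130.1, and Cox6a2 at 0.332 and 10.4 (3.10, and -0.22 with T18). Cox4i2 was listed at 0 and 0.404, under the filter. At day 7 the tissue forms thus stood below their general partners in all 4 pairs.

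The brown fat list had 11 of 13 kept genes higher and 1 lower (median 4.13). Cidea, a droplet protein of brown fat, went from 0.158 to 56.5 (5.63), and Cpt1b, the muscle and brown fat form of the mitochondrial fatty acid gate, from 0.0181 to 54.8 (5.78). Ucp1, the uncoupling protein that makes heat, was listed at 0 at day 0 and stood at 1.03 at day 7, under the filter on the mean. Its deposited RPKM at day 7 was 0.882, where 1 RPKM over 2 kb rests on about 11.0 reads. The lower member was the kininogen Kng2, at 4.99 and 0.150 (-2.38).

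Fuel oxidation genes were mostly higher. Mitochondrial fatty acid oxidation and ketone genes had 19 of 21 higher and 1 lower (median 3.25). Hadhb, of the trifunctional protein, went from 22.4 to 532.6 (4.51), and Acadvl, the very long chain dehydrogenase, from 16.4 to 356.4 (4.36), while Oxct1, which uses ketone bodies, went from 101.7 to 50.2 (-1.01, and -0.98 with N9_ss). The TCA cycle with pyruvate entry had 27 of 31 higher and 0 lower (median 3.17). Pcx, pyruvate carboxylase, went from 7.04 to 593.8 (6.21), Idh3a from 11.3 to 312.4 (4.67), and Pdk4, the kinase that shuts pyruvate entry, from 5.88 to 153.8 (4.49). Breakdown of branched-chain amino acids had 18 of 21 higher (median 2.31). Among them were subunits of the first committed complex, Bckdha at 11.6 and 139.3 (3.48) and Bckdhb at 12.0 and 189.7 (3.87).

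Peroxisomes had 22 of 28 genes higher and 0 lower (median 2.50). The thiolase Acaa1b went from 2.76 to 786.2 (7.71), the bifunctional enzyme Ehhadh from 0.0812 to 81.8 (6.26), the membrane assembly factor Pex16 from 3.84 to 164.2 (5.09), and catalase (Cat) from 44.9 to 472.5 (3.37). Of 28 antioxidant genes 14 were higher and 3 lower (median 1.03). The microsomal transferases Mgst1, at 18.5 and 1640.3 (6.40), and Mgst3, at 38.3 and 661.9 (4.08), led it. Prdx4, the peroxiredoxin of the endoplasmic reticulum, was lower at 154.3 and 39.7 (-1.93), Nqo1 at 24.7 and 4.86 (-2.14), and Gsta4 at 145.1 and 68.0 (-1.08, and -0.99 with N9_ss or 0.33 with T18).

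Genes that build and supply mitochondria were mostly higher. Import and chaperone genes had 28 of 34 higher (median 1.92), with the chaperone Hspa9 at 55.6 and 430.3 (2.93) and the matrix protease Lonp1 at 14.5 and 115.2 (2.91). Mitochondrial ribosomal proteins had 53 of 77 higher (median 1.40), led by Mrpl12 at 26.3 and 380.9 (3.80). Neither list had a gene called lower. The SLC25 carriers of the inner membrane had 21 higher and 4 lower of 36 (median 1.51), the latter below the 19.6% share of all kept genes. Slc25a10, the dicarboxylate carrier, went from 4.68 to 188.7 (5.06), and Slc25a22, a glutamate carrier, from 4.24 to 104.7 (4.33), while the ATP-magnesium carrier Slc25a24 went from 28.1 to 4.58 (-2.38) and mitoferrin (Slc25a37) from 11.4 to 2.93 (-1.65).

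Sugar and sterol metabolism were also higher. Glycolysis and the pentose phosphate pathway had 22 of 26 genes higher and 0 lower (median 2.64). Pfkl, a phosphofructokinase, went from 8.21 to 245.0 (4.74), Aldoa from 121.0 to 2435.3 (4.32), and Gpi1 from 24.7 to 429.0 (4.07). Gapdh, often used to normalise RNA, went from 73.1 to 967.5 (3.71). Cholesterol synthesis and uptake had 16 of 23 higher and 0 lower (median 1.51), with Pmvk at 6.38 and 132.3 (4.17), lanosterol synthase (Lss) at 8.70 and 147.3 (3.93), and Dhcr7, the last enzyme of the path, at 7.40 and 114.0 (3.78).

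Caveolae are the membrane pits that crowd the fat cell surface, and 5 of 8 kept genes were higher and 0 lower (median 2.18). Cav1, their main coat protein, went from 9.45 to 116.5 (3.49) and its partner Cav2 from 10.9 to 154.4 (3.70). Among the cavins Ptrf was at 241.0 and 898.8 (1.89) and Sdpr at 37.5 and 285.0 (2.89), while Prkcdbp, at 113.1 and 135.4, and Murc, at 0.701 and 1.61, were not called. Ehd2, which holds the neck, went from 80.9 to 450.3 (2.46), Pacsin2 stood at 23.0 and 17.9, and the muscle form Cav3 was listed at 0 in both. With T18 in place of N9 the caveolae median was -0.27, with Ptrf at -0.47 and Ehd2 at -0.38.

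Several metabolic medians were also smaller with T18. They were 1.15 for triglyceride assembly, 1.95 for brown fat genes, 2.22 for droplet proteins, 2.35 for lipolysis, 2.49 for fatty acid uptake and 2.75 for adipokines. Lipogenesis stood at 1.97, fatty acid oxidation at 1.77, the TCA cycle at 2.04, peroxisomes at 1.18 and insulin action at 0.03.

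**Figure D3:**
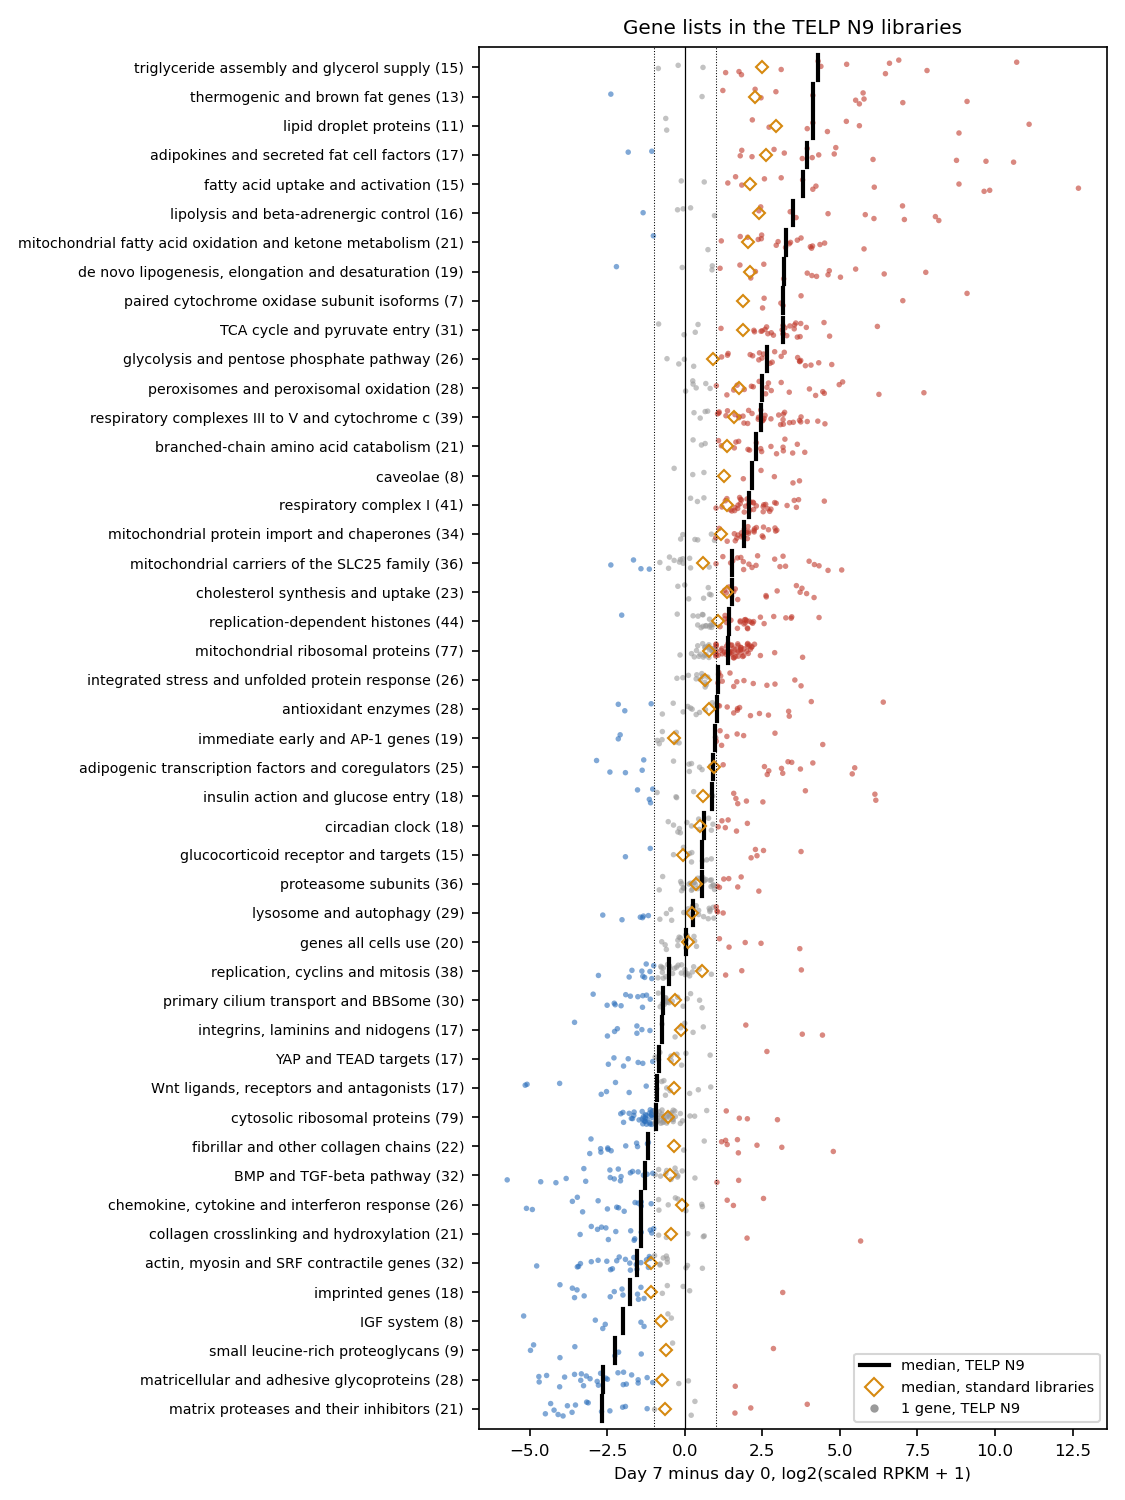
Difference between day 7 and day 0 (x axis, log2(scaled RPKM + 1)) for every kept member of each list, 1 dot a gene, with the list's median in the TELP pair as a black bar and in the standard pair as a diamond; dotted lines mark the call at 1, and brackets give the number kept. Metabolic lists run to the right and matrix, signalling and contractile lists to the left, and in all but 3 of the lists the diamond lies nearer to 0 than the bar.

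Many matrix genes of the fibroblast were lower. Smoc2, a matricellular calcium-binding protein, had the largest lower difference of genes above 0 in both libraries once near-identical copies were set aside, from 208.5 to 1.61 (-6.33). Nov, a CCN-family protein, went from 1063.9 to 40.3 (-4.69), the large proteoglycan versican (Vcan) from 338.4 to 12.0 (-4.70), and the microfibril protein Mfap4 from 24.4 to 0.161 (-4.45). Of 28 matricellular and adhesive glycoproteins 25 were lower and 1 higher (median -2.63), against 19.6% lower among all kept genes, and their share of RPKM went from 1.45% to 0.156%. The higher one, thrombospondin 1 (Thbs1), stood at 23.4 and 74.6 (1.63, and -1.56 with T18). The cartilage and bone markers Sox9, Col2a1 and Runx2 moved down beside these lists, as given above, and their part was not tested.

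Among small leucine-rich proteoglycans, which bind collagen fibrils, 7 of 9 were lower and 1 higher (median -2.25, and -1.02 with T18). Ogn went from 604.5 to 18.3 (-4.97), Aspn from 301.7 to 9.32 (-4.87), decorin (Dcn) from 96.5 to 5.02 (-4.02), and biglycan (Bgn) from 1453.8 to 304.9 (-2.25), and Prelp from 16.1 to 122.4 (2.86). With T18 at day 7 Dcn stood at 0.32 and Prelp at -1.56. Matrix proteases and their inhibitors had 15 of 21 lower and 3 higher (median -2.68). The membrane protease Mmp16 went from 60.7 to 1.74 (-4.49), Adamts5 from 103.7 to 4.68 (-4.21), and Serpine2 from 265.9 to 12.3 (-4.32), whereas the metalloprotease Adam12 went from 7.27 to 35.1 (2.13, and 0.26 with T18).

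Collagen chains went both ways. The fibrillar chains Col1a2, at 827.4 and 125.4 (-2.71), and Col11a1, at 12.6 and 0.627 (-3.06), were lower, and so was the short-chain Col8a2, at 11.2 and 0.512 (-3.02). The basement membrane chains Col4a1, at 44.9 and 229.2 (2.33), and Col15a1, at 7.89 and 245.7 (4.79), were higher, and so was Col27a1, another fibrillar chain, at 1.60 and 21.7 (3.13). Counts were 12 lower and 8 higher of 22 (median -1.18). Enzymes that hydroxylate and crosslink collagen had 13 of 21 lower and 2 higher (median -1.40), among them Pcolce at 410.8 and 50.0 (-3.01), P4ha3 at 15.4 and 0.587 (-3.37), and the chaperone Fkbp10 at 84.1 and 11.1 (-2.81).

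Receptors for the matrix were also called both ways. Of 17 integrins, laminins and nidogens 8 were lower and 3 higher (median -0.73). The 3 higher were near the 19.0% share of all kept genes. Itga5, the fibronectin receptor chain, went from 30.6 to 4.62 (-2.49), Itgav from 35.4 to 6.59 (-2.26) and nidogen 2 (Nid2) from 143.9 to 11.3 (-3.55). The laminin receptor chains Itga6, at 0.494 and 31.5 (4.44), and Itga7, at 0.279 and 16.7 (3.79), were higher.

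Contractile genes were lower without exception among those called. Of 32 kept genes 22 were lower and 0 higher (median -1.55), and their share of RPKM went from 2.31% to 0.727%. Myl9, a regulatory myosin light chain, went from 117.9 to 3.36 (-4.77), and the calponins Cnn2 from 186.9 to 16.1 (-3.46) and Cnn3 from 208.7 to 18.6 (-3.42). Vimentin (Vim), the intermediate filament of fibroblasts, went from 1442.1 to 653.6 (-1.14). Targets of YAP and TEAD, factors that read cell tension, had 7 of 17 lower and 1 higher (median -0.84), with Axl at 29.4 and 4.51 (-2.46) and Tead2 itself at 14.0 and 2.10 (-2.28), but Dlc1 at 14.0 and 93.5 (2.65).

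Contractile genes are textbook targets of the serum response factor SRF, which binds the CArG box, so the 250 bases before each gene's start were searched on both strands. Promoters came from RefSeq (build GRCm38.p6), matched for 8382 of the 11145 kept genes (75.2%), with the first start only where 1716 genes list several. A CArG box lay in 6 of 26 matched contractile promoters (23.1%) against 95 of 8382 overall (1.13%), 1.79% of those called lower and 1.09% of those called higher. Within the list it lay in 4 of 19 promoters of genes called lower (21.1%). The list was drawn up as genes of SRF, so the box is not independent of it. Other searched strings were also more common in it: GGAATG lay in 42.3% against 10.0% of all, CCAAT in 57.7% against 37.2% and TATAAA in 15.4% against 5.93%, while CCGGAAG lay in 3.85% against 15.0% and TGACGTCA in 3.85% against 2.92%. The 4 are printed with the CArG box in capitals. Vcl, the focal adhesion protein vinculin, and Acta1, skeletal actin, were chosen for the box after their values were seen.
Myl9 (chr2:156775214-156775463, plus strand): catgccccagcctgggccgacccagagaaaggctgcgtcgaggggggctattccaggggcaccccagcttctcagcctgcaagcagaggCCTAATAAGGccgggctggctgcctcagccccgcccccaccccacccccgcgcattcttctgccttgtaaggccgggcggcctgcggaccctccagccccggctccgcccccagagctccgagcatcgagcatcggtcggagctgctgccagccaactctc
Cnn2 (chr10:79988350-79988599, plus strand): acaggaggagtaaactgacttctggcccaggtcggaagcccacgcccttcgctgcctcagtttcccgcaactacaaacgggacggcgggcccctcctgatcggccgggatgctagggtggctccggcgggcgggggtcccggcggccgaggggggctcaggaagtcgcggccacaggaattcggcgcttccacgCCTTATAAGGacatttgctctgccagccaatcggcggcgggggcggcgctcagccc
Vcl (chr14:20929148-20929397, plus strand): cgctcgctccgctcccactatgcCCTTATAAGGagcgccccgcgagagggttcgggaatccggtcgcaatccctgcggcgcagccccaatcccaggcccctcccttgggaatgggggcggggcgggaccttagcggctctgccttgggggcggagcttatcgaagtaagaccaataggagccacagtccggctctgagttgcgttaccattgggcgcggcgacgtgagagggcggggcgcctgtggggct
Acta1 (chr8:123894776-123895025, minus strand): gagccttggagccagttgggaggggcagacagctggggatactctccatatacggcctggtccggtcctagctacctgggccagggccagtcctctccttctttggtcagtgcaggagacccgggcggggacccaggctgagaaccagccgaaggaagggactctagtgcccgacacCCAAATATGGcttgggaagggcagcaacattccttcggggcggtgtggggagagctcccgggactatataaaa

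Their boxes end 151, 46, 217 and 63 bases before the start in the order printed, and Cnn2 and Vcl carry the same letters. Vcl went from 162.7 to 68.9 (-1.23) and Acta1 from 31.3 to 8.60 (-1.75). The difference varied from -1.23 to -4.77 among the genes printed, all of them called lower. A match is a string of letters and does not show binding. Genes without a match in the window were lower too, such as Cnn3. Another 2 genes with a match were not called: Srf, the factor itself, at 16.9 and 11.1 (-0.56), and the cytoplasmic actin Actg1 at 613.9 and 312.9 (-0.97).

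The same 250 bases were searched for a C/EBP-like string, TTGCNNAA, and for AGGTCA, the core that nuclear receptors such as PPARγ bind. TTGCNNAA lay in 7.43% of all matched promoters, 8.63% of those higher and 7.55% of those lower, and in 4 of 29 promoters (13.8%) of the lipid lists. AGGTCA lay in 10.1%, 12.3% and 8.96%, and in 4 of those 29 (13.8%). With 4 matches each, the lipid lists are too few to set apart from all genes. The strings stand in capitals in a promoter of each kind, both of genes among the 10 highest.
Plin1 (TTGCNNAA, chr7:79732777-79733026, minus strand): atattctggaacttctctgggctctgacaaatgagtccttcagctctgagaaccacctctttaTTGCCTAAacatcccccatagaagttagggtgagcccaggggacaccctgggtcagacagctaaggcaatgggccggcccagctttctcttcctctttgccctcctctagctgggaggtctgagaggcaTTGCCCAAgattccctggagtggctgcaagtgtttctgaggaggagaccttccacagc
Cd36 (AGGTCA, here on the opposite strand, chr5:17835897-17836146, minus strand): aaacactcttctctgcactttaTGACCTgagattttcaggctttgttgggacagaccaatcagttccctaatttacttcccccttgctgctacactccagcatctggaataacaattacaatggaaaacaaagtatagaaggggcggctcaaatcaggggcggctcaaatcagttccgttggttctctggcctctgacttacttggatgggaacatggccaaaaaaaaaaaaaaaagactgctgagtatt

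The plain CG content of these windows also differed by side. Matched promoters held a median of 17.0 CG pairs, those of higher genes 16.0 and those of lower genes 14.0. Windows with under 5 CG pairs made up 8.47% of all, 10.0% of the higher and 15.9% of the lower.

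Signalling genes of the precursor were lower across several pathways. Among Wnt genes 8 of 17 were lower and 0 higher (median -0.90). The secreted Wnt antagonists led them: Sfrp1 went from 77.3 to 1.22 (-5.14), Sfrp2 from 605.1 to 16.9 (-5.08), and Dkk2 from 38.9 to 1.45 (-4.03). In the BMP and TGF-beta pathway 18 of 32 were lower and 2 higher (median -1.27). The BMP antagonist gremlin (Grem1) went from 67.0 to 0.294 (-5.72), the ligands Bmp4 from 62.7 to 2.60 (-4.15) and Tgfb2 from 64.6 to 1.63 (-4.64), while the ligand Gdf5 went from 0.198 to 3.00 (1.74) and Tgfb1 from 1.39 to 3.91 (1.04, and 0.63 with equal totals). All cells had received BMP7 before day 0.

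In the IGF system 6 of 8 kept genes were lower and 0 higher (median -1.99). In the standard pair 2 of 8 were lower and 0 higher (median -0.76), with Igf1 at 194.7 and 181.1 (-0.10). In the TELP pair the growth factor Igf1 went from 223.1 to 34.9 (-2.64) and Igf2 from 6.72 to 2.12 (-1.31). The receptor Igf1r went from 17.1 to 2.06 (-2.56) and Igf2r from 29.9 to 10.6 (-1.41). Of the binding proteins Igfbp5 went from 338.8 to 8.30 (-5.19) and Igfbp3 from 30.0 to 3.21 (-2.88). Igfbp4, at 83.8 and 61.9, and Igfbp7, at 101.1 and 69.2, were not called, though both pass at equal totals (-1.01 and -1.12), and Igfbp2, at 0.0338 and 0.188, and Igfbp6, at 0.105 and 0, were under the filter. Imprinted genes, several of them growth regulators, had 13 of 18 lower and 1 higher (median -1.75). The noncoding RNAs Meg3, at 106.6 and 8.21 (-3.55), and Airn, at 16.6 and 0.434 (-3.62), were among the lower, and Peg10, at 0.558 and 12.9 (3.16), was the higher one.

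Inflammatory genes were mostly lower in the TELP pair. Of 26 chemokine, cytokine and interferon genes 15 were lower and 3 higher (median -1.40, and -0.59 with T18). In the standard pair 6 of 27 were lower and 1 higher (median -0.09). Il6, near 0 in both standard libraries, went from 33.2 and the chemokine Cxcl5 from 29.0 to being listed at 0, and Ifitm1 from 14.0 to 0.224 (-3.62). Ifi27 was higher at 85.6 and 501.7 (2.54), as was Ptges, a prostaglandin E synthase, at 1.73 and 7.11 (1.57, and -0.11 with T18). Primary cilium genes had 12 of 30 lower and 0 higher (median -0.69). In the standard pair 0 of 30 were lower and 0 higher (median -0.32). In the TELP pair the transport protein Ift74 stood at 18.2 and 2.40 (-2.50). Gli3, which the cilium regulates, stood at 14.6 and 1.03 (-2.95).

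Cell cycle genes had 9 lower and 3 higher of 38 (median -0.49), and 26 not called. The 9 lower were near the 19.6% share of all kept genes. Ccnd1, cyclin D1, went from 73.5 to 9.87 (-2.78) and the helicase subunit Mcm4 from 13.5 to 3.18 (-1.79). The cyclin-dependent kinase inhibitors split: Cdkn2c went from 15.6 to 224.1 (3.76) and Cdkn1a from 51.6 to 187.9 (1.84), whereas Cdkn1b went from 57.4 to 17.0 (-1.70). Ccnd2 stood at 70.7 and 178.0 (1.32, and 0.74 with equal totals). Replication-dependent histones, whose messages lack a poly(A) tail, had 27 of 44 higher and 1 lower (median 1.44). Their copies are nearly identical, so single histone genes are not given.

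Cytosolic ribosomal proteins had 32 of 79 lower and 4 higher (median -0.93), against 0 lower and 0 higher of 78 in the standard pair (median -0.55). Their share of RPKM in the TELP pair went from 11.8% to 4.66%. Rps18 went from 851.6 to 214.2 (-1.99), Rpl12 from 448.0 to 113.4 (-1.97) and Rps12 from 241.6 to 57.2 (-2.06). Rplp1, at 1436.2 and 1792.8, Rpl41, at 2562.8 and 2085.8, and Rps15, at 1694.7 and 848.7, were not called, though Rps15 was at equal totals (-1.59). Many of these genes have pseudogene copies that can share reads, so single values such as Rpl26, at 27.9 and 229.8, are uncertain. Proteasome subunits had 7 of 36 higher, near the 19.0% of all kept genes, and 0 lower. Their median of 0.55 turns to -0.03 with equal totals, and Psma1 had the largest difference, at 31.4 and 169.3 (2.39). Lysosome and autophagy genes had 4 higher and 6 lower of 29, the latter near the 19.6% of all kept genes. Their median of 0.28 turns to -0.29 with equal totals and -0.58 with T18. Lamp2, a lysosomal membrane protein, went from 341.7 to 83.5 (-2.02), while the proton pump subunit Atp6v0e went from 123.9 to 293.9 (1.24, and 0.65 with equal totals).

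Stress, hormone and clock genes were mixed. The unfolded protein and integrated stress response had 14 of 26 higher and 0 lower (median 1.08, and 0.04 with T18), with Trib3 at 0.822 and 23.4 (3.75), the chaperone Dnajb9 at 14.4 and 178.8 (3.55) and Atf3 at 0.685 and 11.7 (2.91). Immediate early and AP-1 genes had 8 higher and 2 lower of 19 (median 0.99, and -0.24 with T18), with Fosl1 at 0.940 and 41.5 (4.45) but Egr3 at 4.45 and 0.235 (-2.14) and Nr4a1 at 20.5 and 4.09 (-2.08). Glucocorticoid targets had 5 higher and 2 lower of 15 (median 0.57). In this list and the immediate early list the 2 lower were below the 19.6% share of all kept genes. Hsd11b1, which regenerates active glucocorticoid, went from 1.09 to 27.1 (3.75), metallothionein 1 (Mt1) from 206.5 to 1207.1 (2.54) and the phosphatase Dusp1 from 7.38 to 41.2 (2.33), and Errfi1 from 15.6 to 6.68 (-1.11). With T18 Dusp1 stood at -0.39 and Errfi1 at 0.47. Clock genes had 6 of 18 higher and 0 lower (median 0.62), among them Npas2, listed at 0 and 2.18, and Bhlhe40 at 12.1 and 33.7 (1.40, and 0.84 with equal totals).

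Some genes at the edges belong to no list. Mrap, an accessory protein of the ACTH receptor, went from 0.0481 to 622.7 (9.22), and Ltc4s, leukotriene C4 synthase, from being listed at 0 to 198.0. On the lower side the adhesion protein cadherin 11 (Cdh11) went from 339.2 to 10.5 (-4.89), the lipocalin Apod from 91.2 to 2.11 (-4.89), the uncharacterised 1500015O10Rik from 128.2 to 2.16 (-5.35), and the granin Scg2 from 19.7 to being listed at 0. Ptn, the growth factor pleiotrophin, took most RPKM at day 0 (0.908%) and went from 2636.1 to 108.5 (-4.59). Tpt1 went from 2170.2 to 661.9 (-1.71). Fth1, ferritin heavy chain, at 2060.4 and 2547.2, and the elongation factor Eef1a1, at 1788.5 and 2109.1, were not called. Of 20 genes that all cells use 5 were higher and 0 lower, with a median of 0.05 that turns to -0.35 as deposited and -0.50 with equal totals. Those called, besides Gapdh, included Sdha, a subunit of complex II, at 51.0 and 285.9 (2.46).

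**Figure D4:**
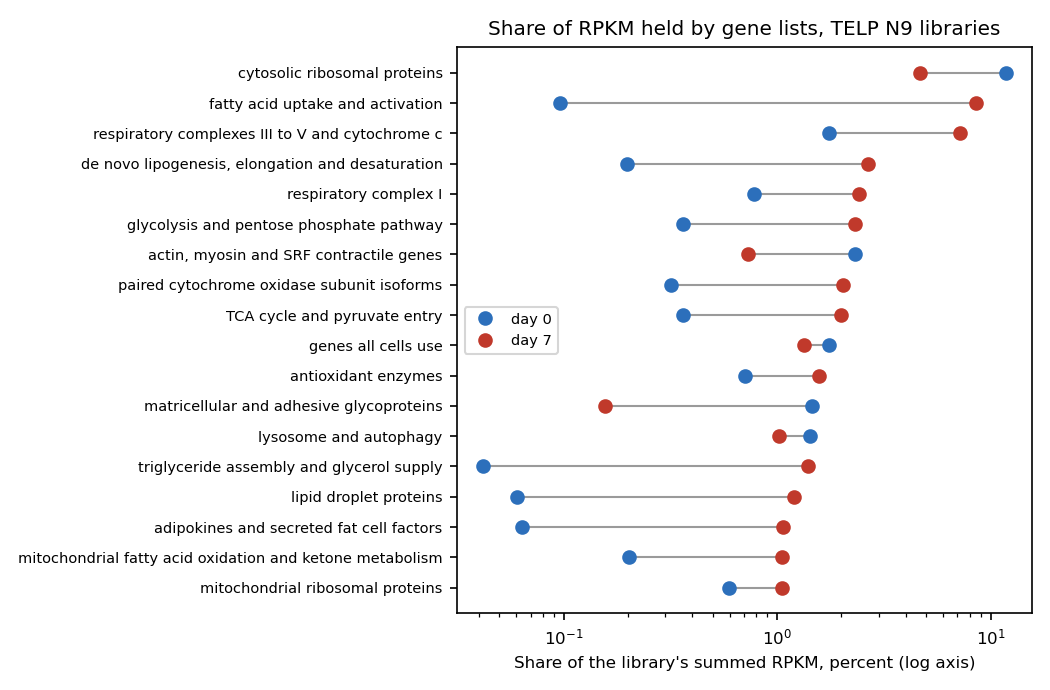
Share of the library's summed RPKM (x axis, percent, log scale) held by the 18 gene lists with the largest share on either day, blue for day 0 and red for day 7. Fatty acid uptake genes go from 0.0959% to 8.57% and cytosolic ribosomal proteins from 11.8% to 4.66%.

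The RNA was less evenly spread at day 7. The 10 genes with most RPKM held 6.49% of the total at day 0 and 13.5% at day 7, and the first 100 held 25.7% and 33.8%. Genes at 1 RPKM or more numbered 11171 and 10279.

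An exact 0 was not always absence. Canx, the chaperone calnexin of all cells, was listed at 0 at day 0 and at 144.6 at day 7, yet the standard libraries held 156.2 and 182.2. Lox, the collagen crosslinking enzyme, was listed at 0 and 49.9 against 697.0 and 457.7, so its call as higher is not a measure of change. At day 7 the kinase Hipk3 was listed at 0 after 17.8, against 19.3 and 23.6. Il6 was near 0 in both standard libraries, at 0.439 and 0.257, and the noncoding RNA Bc1, at 11.1 and then 0, was at 0 in both.

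Beside the standard libraries of the same days, scaled in the same way, the TELP pair gave more calls. The standard pair had 1130 of 11164 genes higher (10.1%) and 465 lower (4.17%), with a median of 0.00. Over 10852 genes kept in both pairs, 1023 were higher in both, which is 52.2% of the TELP calls and 92.2% of the standard calls. On the lower side 418 were shared, 19.4% of the TELP calls and 91.1% of the standard ones. The sign was shared more often than the call: 97.4% of the 1959 higher and 91.8% of the 2154 lower TELP genes differed the same way in the standard pair. The differences spread with an SD of 1.51 in the TELP and 0.89 in the standard pair. They correlated with r = 0.855 across genes, which are not replicates and come from 1 library a day in each pair. Whether the RNA was the same is not stated.

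**Figure D5:**
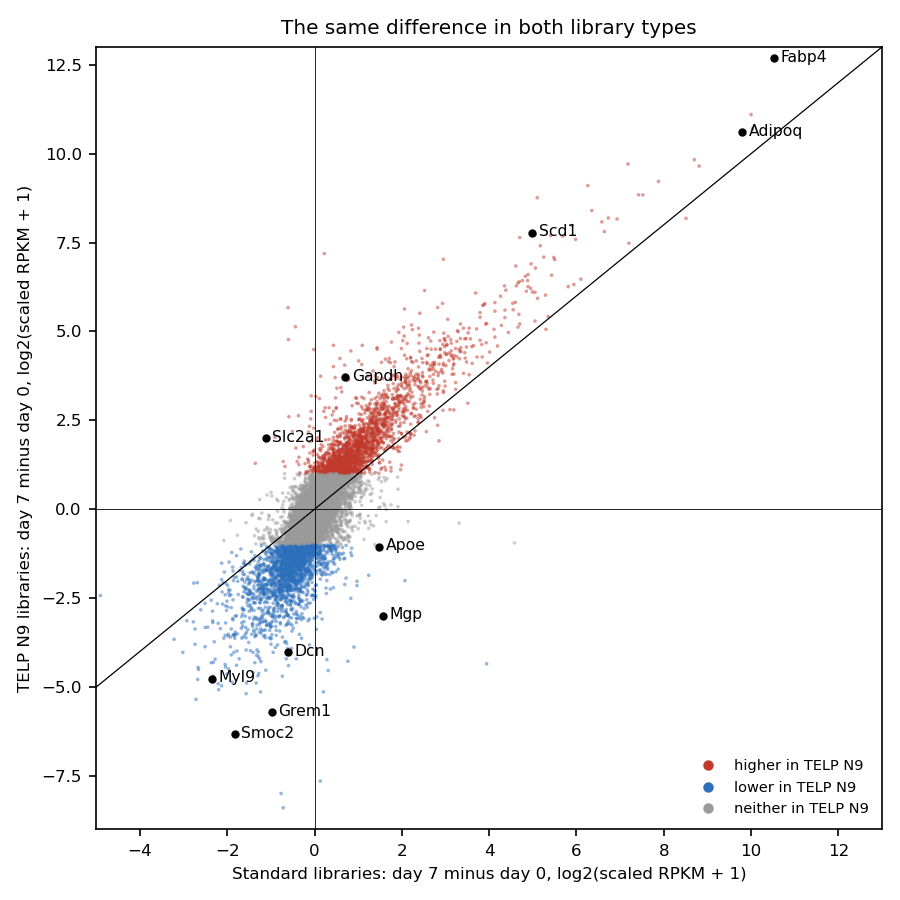
Difference between day 7 and day 0 (log2(scaled RPKM + 1)) in the standard pair (x axis) and the TELP pair (y axis) for the 10852 genes kept in both, 1 point a gene, coloured by the TELP call; the line marks equal differences. Most points lie farther from 0 on the TELP axis, and Apoe, Mgp and Slc2a1 lie on opposite sides of 0.

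Most lists, metabolic and matrix alike, stood nearer to 0 in the standard pair. Brown fat genes had a median of 2.26 there against 4.13, triglyceride assembly 2.50 against 4.30 and glycolysis 0.91 against 2.64. Matricellular genes had a median of -0.74 in the standard pair against -2.63, proteases -0.64 against -2.68 and small proteoglycans -0.60 against -2.25, and decorin (Dcn) went from 119.5 to 78.4 there (-0.60). Contractile genes stood nearer, at -1.09 against -1.55, as did cholesterol genes at 1.35 against 1.51. The lists of transcription factors stood at 0.96 against 0.90. Gapdh was higher by 0.70 in the standard pair, at 79.6 and 130.4, against 3.71. Genes called in opposite directions numbered 7, all named here after their values were seen. Mgp, matrix Gla protein, went from 288.8 to 35.3 in the TELP pair (-3.00) and from 346.0 to 1023.2 in the standard pair (1.56). Slc2a1, the glucose transporter GLUT1, went from 17.4 to 72.1 (1.99) and from 16.6 to 7.07 (-1.12), and Ndrg1 from 39.0 to 96.7 (1.29) and from 45.8 to 17.2 (-1.36). Adh1, an alcohol dehydrogenase, differed by -1.86 and 1.24, and Apoe by -1.06 and 1.48. The other two, LOC547349 and the pseudogene Pisd-ps1, were near 0 in 1 library of each pair. Among the 10 lowest genes, TELP and standard levels lay closer as ratios at day 0 than at day 7. Smoc2 was at 208.5 and 227.7 at day 0, and at 1.61 and 63.2 at day 7. Grem1 was at 67.0 and 55.2, then at 0.294 and 27.4. These genes were picked by their TELP values, and the pairs were scaled separately. Neither pair has a replicate, so the differences between the pairs were not tested.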

How the data were processed

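The authors deposited 1 table of RPKM values, corrected for gene length and library size, with 24029 genes and a column for each library. Alignment and quantification tools are Bowtie2, TopHat and Cufflinks on mm9, per the submitters' processing notes. Versions, annotation, strand handling and read totals were not given in the sources used here. Without strand, reads of a gene and its antisense partner cannot be told apart. No mm9 coordinates are printed, promoters are given in GRCm38.p6, and 23092 symbols (96.1%) matched the gene table of that build.

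From these values were computed: removal of 1198 small noncoding RNAs by symbol, median-of-ratios scaling over 9741 genes above 1 RPKM in both libraries (factors 0.860 for day 0 and 1.16 for day 7), and log2 differences with a pseudocount of 1. Genes with a mean of at least 1 were kept and called at an absolute difference of 1. Depth came from steps of the low values after deducting 196 bases from gene length, and covers counting only.

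The comparison, its 47 gene lists and the marker lists were chosen with earlier results of these data known. Named genes were 6 anchors (Pparg, Cebpa, Fabp4, Adipoq, Ucp1, Dlk1), the 10 highest and 10 lowest, 5 listed at 0 on each day, up to 3 called each way per list, all members of lists of 10 or fewer, and the 10 with most RPKM per library, without near-identical copies. A few genes under the rule are not reported here. With 1 library a side no test, SD or replicate check was possible. Alternatives were other pseudocounts, filters, scalings, call sizes and the N9_ss or T18 library at day 7. The T18 label is not spelled out. Chromatin libraries were not analysed here. Python 3.11.15, numpy 2.4.6, pandas 2.3.3 and matplotlib 3.10.9 were used.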

Additional observations from a re-analysis of the deposited data

Results flagged for a closer look

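Some values differed in direction between the TELP and the standard pair, and with 1 library a side in each the difference was not tested. Genes of replication, cyclins and mitosis had a median of -0.49 in the TELP pair and 0.56 in the standard pair. Glucocorticoid receptor and target genes had medians of 0.57 and -0.04. Immediate early and AP-1 genes had medians of 0.99 and -0.34. Apoe, the apolipoprotein E, differed by -1.06 and 1.48, and with the N9_ss library at day 7 its TELP value was -0.92.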

How the results depend on the processing

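No paired analysis was possible because each group holds 1 RNA library and the result comes from no test. Of 2114 genes higher and 2183 lower, both counts moved with the setting. The lower count was 3286 with RPKM as deposited, 3774 with equal totals, 1376 with a filter at a mean of 5 and 2106 with T18 at day 7. The higher count was 1530, 1371, 1761 and 1416 in the same order. At a difference of 2 the counts were 927 and 699. The share of calls that were higher was 48.7% with quantile normalization, 56.1% with the filter at 5 and 40.2% with T18 at day 7. Medians of the 47 lists kept their sign under a pseudocount of 0.1, other scalings and N9_ss, except the proteasome, lysosome and common-gene medians given above. Named genes did too, except Eef1a1, Fth1, Prkcdbp and Rplp1, none of them called. N9_ss is no separate check: 83.9% of 3629 low genes stood at a single ratio to N9, against 9.06% between the standard libraries.

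With T18 as the day 7 library the caveolae median turned to -0.27, and Apoe to 1.16, Cox6a2 to -0.22, Dcn to 0.32, Dusp1 to -0.39, Ehd2 to -0.38, Errfi1 to 0.47, Gsta4 to 0.33, Prelp to -1.56, Ptges to -0.11, Ptrf to -0.47, Rpl30 to -3.61 and Thbs1 to -1.56. Among named genes 30 lost their call with T18. Those described above are Adam12 (0.26), Bhlhe40 (0.63), Ccnd2 (0.72), Col27a1 (0.67), Dlc1 (0.54), Elovl3 (0.31), Elovl6 (-0.08), Fosl1 (0.18), Ift74 (-0.60), Igf1 (-0.61), Irs1 (-0.80), Kng2 (-0.43), Mcm4 (-0.72), Oxct1 (-0.13), Pde4b (-0.21), Peg10 (0.19), Prdx4 (-0.82), Rps12 (-0.87), Rps18 (-0.32), Tgfb1 (0.61) and Trib3 (0.36). The cause was not tested. At 5480000 reads, low genes at day 7 rest on few reads.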
